A study of Homo sapiens with 6 samples.

Results

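Transcripts of 10 genes for sensing microbes were followed in CAL27 cells, an established human line of tongue squamous cell carcinoma, with RBM24 overexpressed (3 libraries) or with a control plasmid (3 libraries). RBM24 binds RNA and is known mainly for steering splicing in muscle. The genes encode 4 pattern recognition receptors (TLR2, TLR3, NOD1 and NOD2), the adaptor MYD88, the kinases IRAK4, IRAK1, IRAK2 and RIPK2, and the ubiquitin ligase TRAF6. They were taken by gene symbol from the deposited gene tables, and all 10 were found among 32353 genes of the count table and passed the filter on low counts that left 17887 genes for testing. The set was chosen by role with fold changes of this same comparison in view. Their differences between the groups are therefore a description, and nothing is read from how many of them passed the test. All libraries come from total RNA of 1 cell line. No label tells if replicates are independent cultures, so any p-value rests on the spread of these samples alone, and that spread may be technical.

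Pattern recognition receptors detect conserved microbial molecules and are used by epithelial cells as well as by leukocytes. TLR2 sits at the cell surface and senses bacterial lipoproteins together with TLR1 or TLR6, while TLR3 senses double-stranded RNA in endosomes. NOD1 and NOD2 are cytosolic and sense fragments of bacterial peptidoglycan. TLR2, like the interleukin-1 receptor, recruits MYD88, which assembles IRAK4 with IRAK1 and IRAK2 and passes the signal to TRAF6. TLR3 uses another adaptor, TICAM1, and NOD1 and NOD2 bind the kinase RIPK2 directly. Both routes end at the kinases that release NF-kB.

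The libraries held between 53558773 and 68804210 gene counts. RBM24 itself stood at 125, 109 and 124 CPM (counts scaled to the library total) in the RBM24 libraries and at 2.35, 2.96 and 3.5 CPM in the control libraries, as the labels require. On the first principal component (33% of the variance) control library 1 stood apart, with a score of -33.4, against scores of 9.28 to 15.4 for the RBM24 libraries and -4.95 and -0.0363 for control libraries 2 and 3. All 8 squamous epithelial markers listed were present at a mean of at least 1 FPKM (fragments scaled by gene length and library size), with SFN the highest. Their summed level was 694 to 708 FPKM in the RBM24 libraries and 604 to 635 FPKM in the control libraries, a difference whose part in the results below was not tested. SFN weighed most in this sum, at 344 FPKM with RBM24 and 285 FPKM with the control plasmid. The fitted log2 fold change was positive in 7 of these 8 markers and negative in TP63, and none of the 8 passed the test described below. None of 8 immune markers reached a mean of 1 FPKM: their summed level was 1.18 to 1.37 FPKM in the RBM24 libraries and 1.02 to 1.22 FPKM in the control libraries. The leukocyte marker PTPRC averaged 0 FPKM in the RBM24 libraries and 0.00333 FPKM in the control libraries, and CD3E had the same averages. CD68 was the highest immune marker, at 0.543 FPKM with RBM24 and 0.52 FPKM with the control plasmid. Among 5 fibroblast markers only COL1A1 reached a mean of 1 FPKM, at 1.19 FPKM with RBM24 and 1.09 FPKM with the control plasmid. Among 4 endothelial markers only CDH5 did, at 1.33 FPKM with RBM24 and 1.54 FPKM with the control plasmid. In such bulk libraries fewer cells that express a gene and less RNA per cell cannot be told apart.

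Levels between genes were compared per length, on the deposited FPKM values. IRAK1 was the most abundant of the 10, at 71.8 ± 0.676 FPKM in the RBM24 libraries and 68 ± 4.69 FPKM in the control libraries (SD, n = 3 each). RIPK2 came next, at 16.2 ± 1.14 FPKM in the RBM24 libraries and 20 ± 1.09 FPKM in the control libraries (SD, n = 3 each). Both kinases were thus far more abundant than the receptors, all 4 of which lay below 5 FPKM. IRAK2, TRAF6 and MYD88 followed in this order, between 4.98 and 9.88 FPKM over the RBM24 libraries and between 4.97 and 12.17 FPKM over the control libraries. TLR2 was the most abundant receptor, at 3.57 ± 0.2 FPKM with RBM24 and 4.29 ± 0.165 FPKM with the control plasmid (SD, n = 3 each). IRAK4, TLR3 and NOD1 lay between 2.23 and 3.16 FPKM over the RBM24 libraries and between 2.17 and 3.36 FPKM over the control libraries. NOD2 was the least abundant, at 0.36 ± 0.07 FPKM with RBM24 and 0.443 ± 0.0451 FPKM with the control plasmid (SD, n = 3 each). The order of the 10 mean levels was the same in both groups. The library ranges of IRAK4 and TLR3 overlapped in both groups, and those of IRAK2 and TRAF6 overlapped in the RBM24 libraries alone; no other neighbours in the order overlapped.

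**Figure D1:**
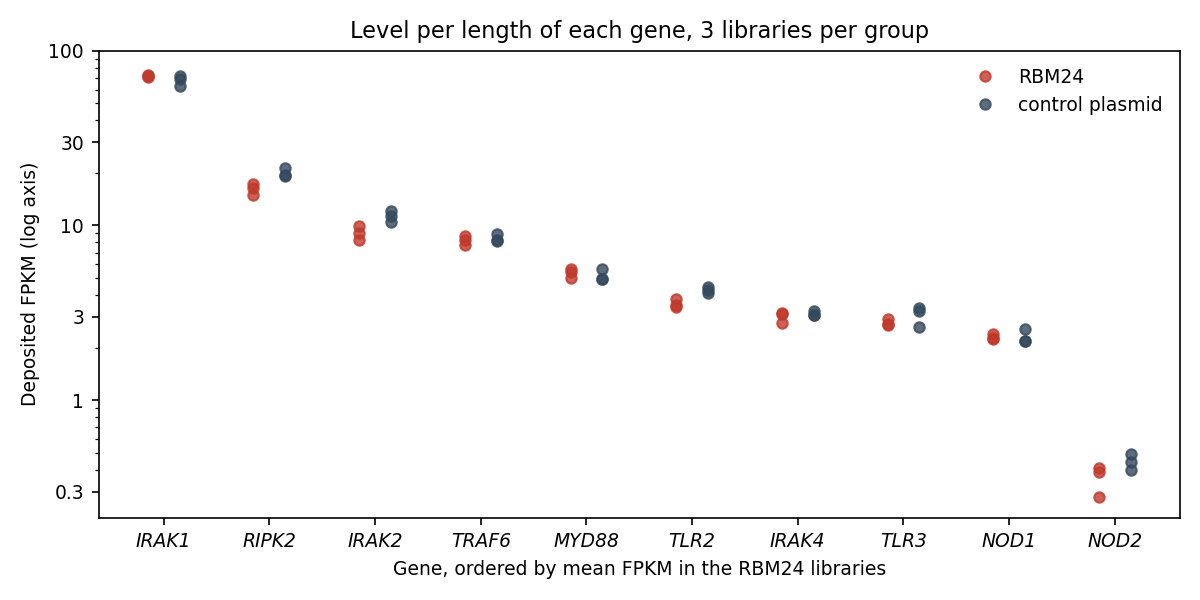
Deposited FPKM (log axis) of each of the 10 genes, with 1 point per library, RBM24 libraries on the left of each pair and control plasmid libraries on the right. IRAK1 lies between 62.9 and 72.51 FPKM and NOD2 below 0.5 FPKM in every library.

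Between the groups, 3 of the 10 genes passed the test across all genes and all 3 were lower with RBM24: RIPK2, IRAK2 and TLR2. The other 7 did not pass. Of all 17887 genes tested, 1.54% passed in either direction, 0.855% as higher and 0.682% as lower (edgeR quasi-likelihood test, Benjamini-Hochberg adjusted p under 0.05). The median log2 fold change, RBM24 over control plasmid, was -0.13 over the 10 genes and 0 over all genes tested. It was negative in 8 of the 10 genes and in 9190 of all 17887. In 4 of the 10 genes (RIPK2, IRAK2, TLR2 and IRAK4) all RBM24 libraries were lower than all control libraries, and in none of the 10 were they all higher. On the deposited FPKM values 3 of the 10 were so separated, since the groups of IRAK4 overlapped there. Over all genes tested, libraries were separate in 18.1%, with 9.53% higher and 8.62% lower.

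RIPK2 (ENSG00000104312.8; GRCh38 chromosome 8, 89757747 to 89791063, plus strand) encodes the kinase that relays signals of NOD1 and NOD2. It stood at 49.3, 53.3 and 56 CPM in RBM24 libraries 1 to 3 and at 72.3, 65.5 and 62.8 CPM in control libraries 1 to 3. The groups did not overlap, and the lowest control library lay 12.1% above the highest RBM24 library. That gap was narrower than the spread within either group. The highest library exceeded the lowest by 13.8% with RBM24 and by 15.1% with the control plasmid. The fitted level with RBM24 was 0.791 of that with the control plasmid, a log2 fold change of -0.34 (SE 0.0624; 95% interval -0.47 to -0.21; edgeR adjusted p = 0.011). Without RBM24 library 1 or 2 it no longer passed (edgeR adjusted p = 0.0712 and 0.0649).

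IRAK2 (ENSG00000134070.5; GRCh38 chromosome 3, 10164865 to 10243743, plus strand) encodes a relative of IRAK1 in the complex that MYD88 assembles. Its level was 30.6, 33.2 and 36.1 CPM in RBM24 libraries 1 to 3, against 46.5, 43 and 38.4 CPM in control libraries 1 to 3. The 6 libraries fell in the same order as for RIPK2, with RBM24 library 1 the lowest and control library 1 the highest, and the gap between the groups was 6.44%. That gap was narrower than the spread within either group, where the highest library exceeded the lowest by 17.9% in the RBM24 libraries and by 21.2% in the control libraries. The fitted ratio was 0.781, a log2 fold change of -0.36 (SE 0.0749; 95% interval -0.52 to -0.20; edgeR adjusted p = 0.0219). Without control library 1, which stands apart on the first principal component, the log2 fold change was -0.29 and did not pass (edgeR adjusted p = 0.0663), nor did it pass without RBM24 library 1 (0.142) or 2 (0.11).

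TLR2 (ENSG00000137462.9; GRCh38 chromosome 4, 153684070 to 153705702, plus strand) had 21.2, 21.6 and 23.4 CPM in RBM24 libraries 1 to 3 and 28.6, 26.2 and 26.4 CPM in control libraries 1 to 3. The groups did not overlap and lay 12.3% apart, more than the 9.96% spread of the RBM24 libraries and the 9.12% spread of the control libraries. Its fitted ratio was 0.815, a log2 fold change of -0.30 (SE 0.0646; 95% interval -0.43 to -0.16; edgeR adjusted p = 0.0275). It did not pass without control library 1 (edgeR adjusted p = 0.0735), RBM24 library 1 (0.187) or RBM24 library 2 (0.174), or with libraries scaled by total counts alone (0.0556). On the deposited FPKM values none of RIPK2, IRAK2 and TLR2 passed, with adjusted p of 0.128, 0.168 and 0.171 (limma on log2(FPKM + 1)). Control library 1 was the highest of the 6 libraries and RBM24 library 1 the lowest in all 3 of these genes; what sets control library 1 apart, and its part in these differences, was not tested.

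**Figure D2:**
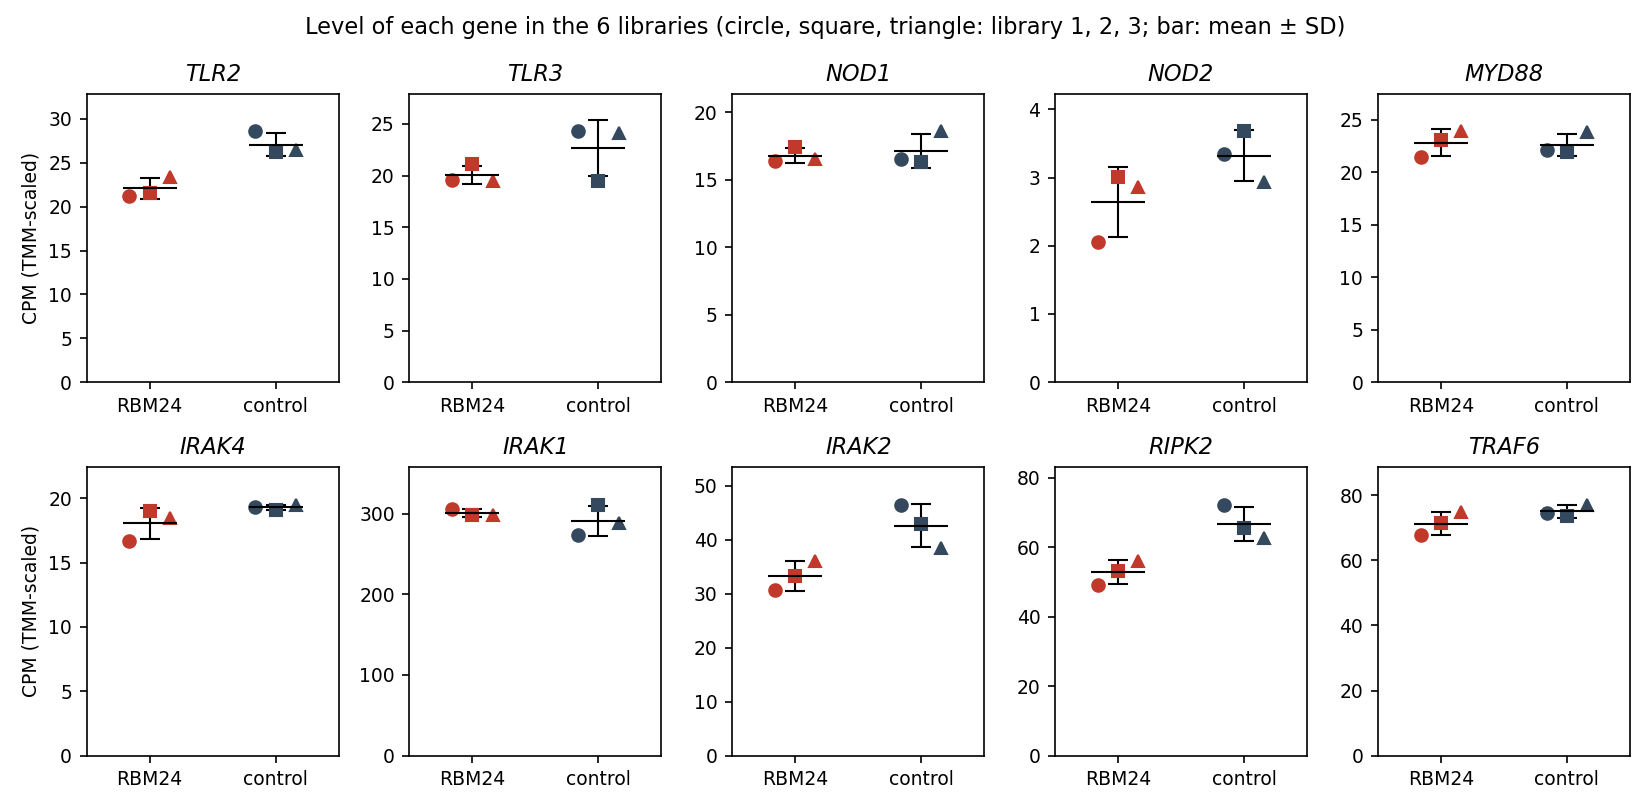
TMM-scaled CPM of each gene in RBM24 libraries (red, left) and control plasmid libraries (dark, right), with axes from 0; circle, square and triangle are libraries 1, 2 and 3, and the bars are mean ± SD (n = 3). The groups do not overlap in TLR2, IRAK2 and RIPK2, and in IRAK4 they are 0.215% apart.

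The promoter sequences of RefSeq (GRCh38.p14) gave a window for 9 of the 10 genes, RIPK2 not among them. The 250 bases before the start that RefSeq gives were searched on both strands for 4 short motifs, whose letters were settled after the windows had been read: NF-kB as GGNNTTTCC, where N is any base, the interferon response element as GAAANNGAA, AP-1 as TGANTCA and ETS as CCGGAAG. Windows are shown for TLR2 and IRAK2, which were lower with RBM24, and for MYD88, which was not called; capitals mark the NF-kB match in TLR2 and the interferon element match in MYD88.
TLR2, chr4:153684030-153684279, plus strand: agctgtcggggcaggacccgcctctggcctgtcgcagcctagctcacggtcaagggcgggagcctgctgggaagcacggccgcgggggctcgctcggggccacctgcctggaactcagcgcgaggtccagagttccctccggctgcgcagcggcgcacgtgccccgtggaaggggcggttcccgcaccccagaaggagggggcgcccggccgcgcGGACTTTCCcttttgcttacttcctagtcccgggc
IRAK2, chr3:10164669-10164918, plus strand: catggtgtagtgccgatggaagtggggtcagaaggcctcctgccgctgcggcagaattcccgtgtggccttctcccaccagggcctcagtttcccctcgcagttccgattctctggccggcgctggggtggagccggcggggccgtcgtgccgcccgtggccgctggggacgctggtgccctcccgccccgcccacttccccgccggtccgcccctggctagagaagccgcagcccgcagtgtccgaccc
MYD88, chr3:38138411-38138660, plus strand: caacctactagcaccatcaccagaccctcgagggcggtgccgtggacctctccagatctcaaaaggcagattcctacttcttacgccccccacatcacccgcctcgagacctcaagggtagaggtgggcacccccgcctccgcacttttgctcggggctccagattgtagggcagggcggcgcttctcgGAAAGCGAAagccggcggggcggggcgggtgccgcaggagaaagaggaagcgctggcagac
TLR2 held the single match to the NF-kB letters among the 9 genes, GGACTTTCC, a motif found in 5.49% of the 35093 windows of this length in the table. MYD88 held the single match to the interferon element, GAAAGCGAA, a motif found in 6.88% of all windows. IRAK2 held no match to any of the 4. The ETS letters occurred once, in IRAK4, and in 8.52% of all windows, and the AP-1 letters in none of the 9 genes and in 6.57% of all windows. Base composition ranged from 82.4% G and C in IRAK1 to 39.2% in TLR3. The RefSeq starts of TLR2, MYD88 and IRAK2 lie 210, 183 and 54 bases downstream of the GENCODE gene starts printed for them. Both marked matches thus lie inside the gene as GENCODE draws it, as do both windows of NOD2 in full. A match says only that these letters are present.

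Among the receptors that did not pass, NOD2 (GRCh38 chromosome 16, 50693588 to 50734041) had the largest fitted difference, with a log2 fold change of -0.33 (SE 0.144; 95% interval -0.64 to -0.03). It was counted 142, 163 and 176 times in RBM24 libraries 1 to 3 and 184, 198 and 185 times in control libraries 1 to 3, or 2.06, 3.01 and 2.86 CPM with RBM24 and 3.34, 3.68 and 2.94 CPM with the control plasmid. RBM24 library 1 was the lowest and the groups overlapped. Without that library the log2 fold change of NOD2 was -0.18 (edgeR adjusted p = 0.792). The interval of NOD2 is that of a single gene, without adjustment over all genes. An antisense gene of lower level overlaps NOD2, as another does NOD1, and no source used here tells if counting used strand.

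TLR3 (GRCh38 chromosome 4, 186069152 to 186088069) stood at 19.6, 21.1 and 19.5 CPM in the RBM24 libraries and at 24.3, 19.5 and 24.1 CPM in the control libraries. Control library 2 lay among the RBM24 libraries, and the log2 fold change of -0.17 (SE 0.0798; 95% interval -0.34 to -0.01) did not pass after adjustment over all genes. Without that library the log2 fold change of TLR3 was -0.27 (edgeR adjusted p = 0.0557). NOD1 (GRCh38 chromosome 7, 30424527 to 30478784) had 16.4, 17.4 and 16.5 CPM with RBM24 and 16.5, 16.3 and 18.6 CPM with the control plasmid. Its values were intermixed between the groups, with a log2 fold change of -0.03 (95% interval -0.18 to 0.11).

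The adaptor gene MYD88 (GRCh38 chromosome 3, 38138478 to 38143022) had 21.4, 23.1 and 23.9 CPM in the RBM24 libraries and 22.1, 21.9 and 23.8 CPM in the control libraries. Its log2 fold change was 0.01 (95% interval -0.13 to 0.15), an interval that does not reach the fitted values of RIPK2, IRAK2 or TLR2. IRAK4 (GRCh38 chromosome 12, 43758944 to 43789543), the first kinase of the complex, had 16.7, 19 and 18.5 CPM with RBM24 and 19.3, 19.1 and 19.5 CPM with the control plasmid. All RBM24 libraries were the lower ones, but by 0.215% at the nearest pair, and the log2 fold change was -0.09 (95% interval -0.24 to 0.05).

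IRAK1 (GRCh38 chromosome X, 154010500 to 154019980), which IRAK4 phosphorylates, had 306, 298 and 298 CPM in the RBM24 libraries and 274, 311 and 288 CPM in the control libraries. The RBM24 values lay inside the control range, with a log2 fold change of 0.05 (95% interval -0.07 to 0.16). TRAF6 (GRCh38 chromosome 11, 36487027 to 36510272) had 67.7, 71.4 and 74.8 CPM with RBM24 and 74.4, 73.5 and 77.1 CPM with the control plasmid. The groups overlapped, and the log2 fold change was -0.07 (95% interval -0.18 to 0.04). The intervals of IRAK1 and IRAK2 did not meet, but a test of the difference between the fold changes of 2 genes was not run.

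**Figure D3:**
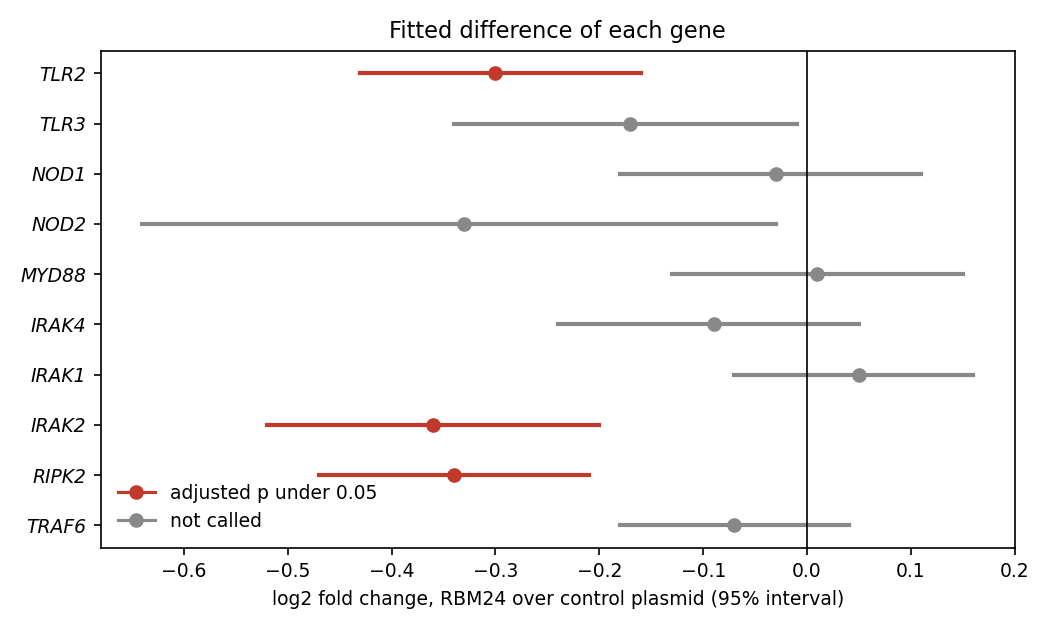
Fitted log2 fold change, RBM24 over control plasmid, of each gene with its 95% interval; red marks the 3 genes with an adjusted p under 0.05 and grey the other 7. RIPK2, IRAK2 and TLR2 lie between -0.36 and -0.30, and MYD88 and IRAK1 close to 0.

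The rest of the pathway was followed in 72 further genes, listed by role. Of these, 63 were tested, 2 passed as lower, 0 passed as higher and 61 did not pass (edgeR). Of all 17887 genes tested, 0.682% passed as lower and 0.855% as higher. The median log2 fold change of the 63 was -0.03. An unadjusted p under 0.05 (edgeR) was found in 11 of the 63 (17.5%), against 2330 (13%) of all 17887 genes. DESeq2 called 3 of these pathway genes, all lower. The 2 that fell were PGLYRP4, a secreted peptidoglycan recognition protein that kills bacteria, and ZC3H12A, an RNase (Regnase-1) that degrades inflammatory mRNAs.

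PGLYRP4 was at 2.19, 2.27 and 2.26 CPM in the RBM24 libraries and at 4.76, 3.77 and 3.02 CPM in the control libraries, a log2 fold change of -0.78 (SE 0.146; edgeR adjusted p = 0.0115). The RBM24 libraries were close together and all lower, while the control libraries spread widely. Without RBM24 library 2 the adjusted p of PGLYRP4 was 0.0518 (edgeR). ZC3H12A was at 134, 152 and 158 CPM in the RBM24 libraries and at 187, 197 and 166 CPM in the control libraries, a log2 fold change of -0.31 (SE 0.0683; edgeR adjusted p = 0.0301). The groups were separate, but the third library of each differed by -0.07 on the log2 scale; leaving out control library 1 or 2, or RBM24 library 1 or 2, ended the call of ZC3H12A (edgeR adjusted p = 0.0702, 0.0853, 0.169 and 0.106).

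Of 11 other toll-like receptors and co-receptors, 6 were tested and none passed (edgeR; 1 had an unadjusted p under 0.05, and DESeq2 called none of them). All 6 log2 fold changes were negative, as were 9190 of all 17887, and their median was -0.25. TLR1, TLR5 and LY96 among them had at most 67 counts in any library. The partners of TLR2 were scarce: TLR1 averaged 0.133 FPKM with RBM24 and 0.17 FPKM with the control plasmid, and TLR6 averaged 0.59 FPKM with RBM24 and 0.68 FPKM with the control plasmid. TLR6 (log2 fold change -0.24, edgeR adjusted p = 0.364) had RBM24 libraries all below the control libraries on CPM alone. There the highest RBM24 library was at 4.13 CPM and the lowest control library at 4.2 CPM. On FPKM the groups of TLR6 overlapped, at 0.51 to 0.64 FPKM with RBM24 and 0.62 to 0.76 FPKM with the control plasmid. CD14, which hands bacterial ligands to toll-like receptors, was at 10.4 FPKM with RBM24 and 10.6 FPKM with the control plasmid.

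The 10 tested NLR proteins and bacterial sensors, PGLYRP4 among them, had a median log2 fold change of -0.07. TIFA, an adaptor that couples the bacterial sugar sensor ALPK1 to TRAF6, averaged 8.47 FPKM with RBM24 and 9.49 FPKM with the control plasmid (log2 fold change -0.20, edgeR adjusted p = 0.166). NLRC5, an activator of MHC class I genes, averaged 2.46 FPKM with RBM24 and 2.11 FPKM with the control plasmid (0.18, edgeR adjusted p = 0.205). None of the 8 sensors and adaptors of nucleic acids passed, with a median of 0 (edgeR; 0 had an unadjusted p under 0.05, and DESeq2 called none of them). The RNA sensor IFIH1 averaged 10.7 FPKM with RBM24 and 11.3 FPKM with the control plasmid, and the DNA sensor CGAS averaged 11.4 FPKM with RBM24 and 10.6 FPKM with the control plasmid.

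Of 17 further adaptors and kinases none passed (edgeR; 3, or 17.6%, had an unadjusted p under 0.05, against 13% of all genes, and DESeq2 called none of them), and their median was -0.01. TICAM1, the adaptor of TLR3, averaged 12.2 FPKM with RBM24 and 11.9 FPKM with the control plasmid (log2 fold change 0.00). IRAK3, a kinase relative that restrains the IRAK complex, averaged 0.683 FPKM with RBM24 and 0.787 FPKM with the control plasmid (-0.24, edgeR adjusted p = 0.271). The adaptor gene TIRAP differed in the other direction, at 0.897 FPKM with RBM24 and 0.687 FPKM with the control plasmid (0.36, edgeR adjusted p = 0.262). MAP3K7, the kinase that TRAF6 activates, had a log2 fold change of 0.07. Among 19 genes of the ubiquitin machinery and of negative regulation, ZC3H12A passed and 18 did not, with a median of -0.02. TNFAIP3, a ubiquitin-editing inhibitor of NF-kB signalling, had a log2 fold change of -0.33 (edgeR adjusted p = 0.0892). PELI1, a ubiquitin ligase that acts on IRAK1, had -0.31 (edgeR adjusted p = 0.119; called by DESeq2). In both, RBM24 library 3 lay inside the control range. The 3 tested transporters that bring muramyl peptides to NOD2 did not pass (median -0.13; 0 had an unadjusted p under 0.05, and DESeq2 called none of them).

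**Figure D4:**
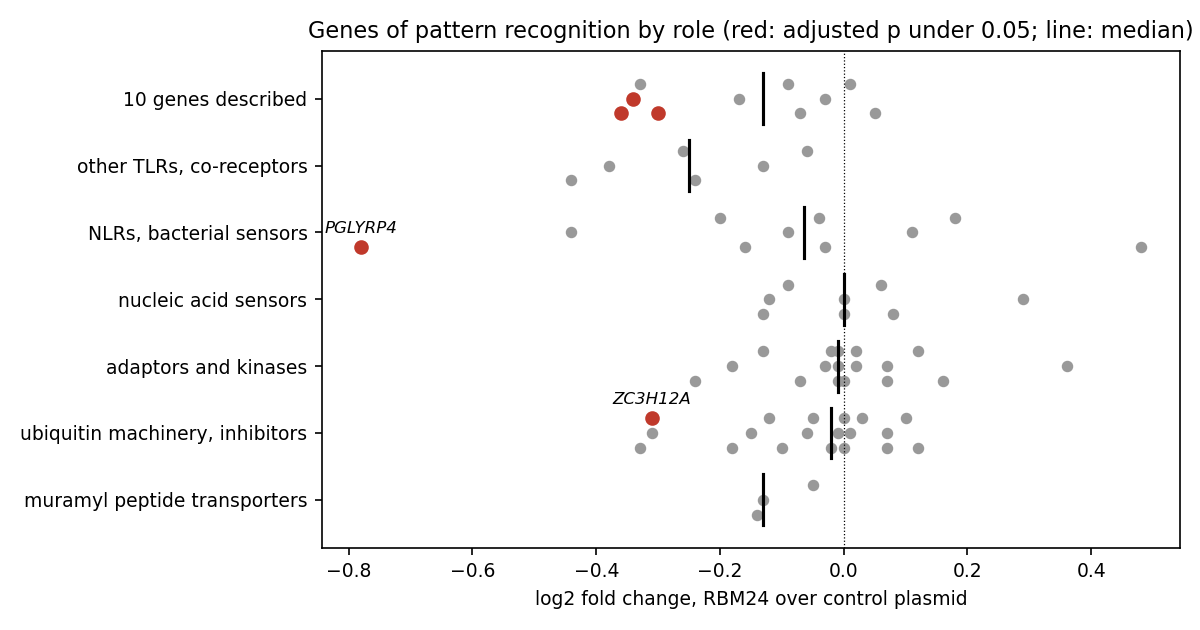
Log2 fold change, RBM24 over control plasmid, of each tested gene by role, 1 point per gene, with the median of each list as a black line. Red marks genes with an adjusted p under 0.05: 3 of the 10 genes described, PGLYRP4 and ZC3H12A.

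Genes with the most similar pattern were sought among 8126 other protein-coding genes of mean log2 CPM 4 or more, by Pearson correlation of log2 CPM over the 6 libraries. The correlations span both groups and include the group difference, and they are a description. For IRAK2 the nearest were the chemokine genes CXCL10 (r = 0.9985), CCL2 (r = 0.9981) and CXCL3 (r = 0.9959). Their log2 fold changes were -0.81, -0.64 and -0.65 (edgeR adjusted p = 0.00577, 0.0113 and 0.0113). None of these chemokine genes passed with DESeq2 (adjusted p = 0.0513, 0.0573 and 0.0754) or with limma on FPKM. Without RBM24 library 2, CCL2 and CXCL3 did not pass in edgeR either (adjusted p = 0.0575 and 0.0624). Reads of CXCL3 may be split with its close paralogs. For RIPK2 the nearest were GMPS (r = 0.9965), NIBAN1 (r = 0.9962) and ERO1A (r = 0.9947). Their log2 fold changes were -0.09, -0.35 and -0.16 (edgeR adjusted p = 0.46, 0.00985 and 0.166). NIBAN1 did not pass with limma on FPKM, or without RBM24 library 1 or 2 (edgeR adjusted p = 0.0593 and 0.0664). For TLR2 the nearest were SNX33 (r = 0.991), FBXO22 (r = 0.989) and the complement gene C3 (r = 0.9882), all with log2 fold changes between -0.09 and -0.07. None of these passed (edgeR adjusted p = 0.653, 0.498 and 0.599).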

How the data were processed

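Total RNA of 6 CAL27 samples was sequenced as 150-nt pairs on an Illumina instrument, per the labels' protocols. Alignment was to GRCh38 by HISAT2, per the submitters' processing notes; version, gene counter, annotation and strand setting are not given in the sources used here. Deposited by the authors were raw counts for 32353 genes and FPKM values, scaled by gene length and library total and rounded, for 31513. Columns marked NC were read as control plasmid and OE_RBM24 as RBM24 libraries.

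The counts went into edgeR 4.0.16 (R 4.3.3): filterByExpr, TMM factors, quasi-likelihood F test on group alone, Benjamini-Hochberg over all 17887 genes, called at 0.05. CPM divides a count by the TMM-scaled library total. Intervals are fitted log2 fold changes with the moderated t quantile. The same code was run on simulated counts with known differences, and how many of these it recovered is not given here. The 10 genes and the lists were chosen with earlier results of these data known; named genes are RBM24, the 10 genes, called pathway genes and the 3 nearest genes by pattern of each called member, and other pathway genes were named after their values were seen. Same-numbered libraries of the groups were checked for pairing by the correlation of their deviations. Positions are from GENCODE on GRCh38, whose release need not be the authors'. Alternatives used DESeq2 1.42.0 and limma 3.58.1; figures used Python 3.11.15 and matplotlib 3.10.9.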

Additional observations from a re-analysis of the deposited data

How the results depend on the processing

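With DESeq2 or upper-quartile factors, no filter on low counts, a mean count of at least 50, DESeq2 or limma-voom, the same 3 of the 10 genes passed, and with total counts alone 2, RIPK2 and IRAK2. Limma on log2(FPKM + 1) or log2(FPKM + 0.1) with the count filter, or on log2(FPKM + 1) with no filter, called 0 of the 10 (3 with an unadjusted p under 0.05 in each) and 0 of the other pathway genes (9, 9 and 7), where it called 50, 62 and 19 of all genes; edgeR called 0 of the 10 only without RBM24 library 1 or 2. Leaving out each library in turn gave 0 to 3 of the 10 genes, 0 to 4 other pathway genes and 90 to 328 of all genes. With no filter on low counts 646 genes were called in all and 4 other pathway genes (PELI1 and TNFAIP3 added). The cause of these shifts was not tested. Of all calls 55.6% were higher in RBM24 libraries with TMM, 67.8% with total counts alone, 47.2% with no filter on low counts, 92%, 91.9% and 78.9% in the 3 limma fits on FPKM, and 39.6% (without control library 3) to 69.3% (without RBM24 library 1) with a library left out. Total-count scaling moved the median log2 fold change of all genes to 0.026. NOD1 and MYD88, both near 0, changed sign under 2 and 3 of 17 alternatives; the other 8 genes kept their sign under all 17. Deviations of same-numbered libraries had correlations of -0.0235, 0.104 and 0.0338, and those of unlike-numbered libraries lay between -0.226 and 0.148. As these are deviations from means of only 3 libraries, the check cannot tell if the numbers pair the libraries. With the replicate number as a block 293 genes, 3 of the 10 and 2 other pathway genes were called. No sample was tested as an outlier, since groups of 3 are too small. NOD2, with the fewest counts (142 to 198), had the widest interval of the 10.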
